A study of Mus musculus with 12 samples.

Results

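Twinfilins, cofilins, gelsolin-family proteins and beta-thymosins are actin-binding proteins, and 10 of their genes were followed here in natural killer (NK) cells with and without the microRNA miR-142. The genes were Twf1, Twf2, Cfl1, Cfl2, Dstn, Capg, Gsn, Tmsb15a, Tmsb4x and Tmsb10. They were taken by name, as probe sets that the platform annotation gave exactly 1 gene symbol, and were 10 of 19938 symbols so represented. The list was drawn up with earlier results of these data known. Its counts beside those of all genes therefore describe the list and measure no enrichment. All 10 lay above the level at which genes were tested. The study profiled CD3-negative, NK1.1-positive cells sorted from C57BL6 mice aged 7 to 10 weeks, matched for age and sex. Affymetrix arrays were run on 3 samples in each of 4 groups: miR-142 knockout (KO) spleen, wild type (WT) spleen, KO bone marrow and WT bone marrow. The labels call the samples of a group biological replicates and do not say whether animals were pooled or which cells lacked the microRNA besides the sorted ones. Values are log2 signals, so a difference of 1 is a doubling.

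Actin filaments grow from monomers at one end and are taken apart at the other, and these proteins act on that turnover. Cofilin-1 (Cfl1), cofilin-2 (Cfl2) and destrin (Dstn, also called actin-depolymerizing factor) sever filaments and speed the loss of monomers. Twinfilins (Twf1, Twf2) bind monomers and filament ends, gelsolin (Gsn) severs and caps filaments, CapG (Capg) caps without severing, and beta-thymosins hold monomers in reserve. NK cells rebuild their actin network when they migrate and when they form the contact through which they kill. miR-142 has been reported to target several actin regulators in megakaryocytes.

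Both mature strands made from the deleted gene are shown because their seeds are the part through which a microRNA recognises its targets. The sequences are RefSeq entries of build GRCm38.p6, at chr11:87756867-87756887 and chr11:87756903-87756925 on the plus strand, and capitals mark the seed, bases 2 to 8.

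mmu-miR-142a-5p: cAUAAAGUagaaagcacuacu

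mmu-miR-142a-3p: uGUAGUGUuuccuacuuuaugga

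The Mir142 probe set read 4.05, 4.59 and 4.50 in KO spleen against 6.77, 7.17 and 7.58 in WT spleen, and 4.69, 4.70 and 4.26 in KO marrow against 7.10, 8.25 and 7.14 in WT marrow. The KO arrays were the lower ones in both tissues, with no overlap. Every KO value lay below 5.49, the level above which genes were tested, so no size is given for the difference. All 10 NK cell markers fixed for this work, among them Ncr1, Klrb1c and Eomes, were above the test level. In limma 0 of them passed in spleen or in marrow alone, where 9.11% and 8.65% of all genes did. In each tissue 2 had an unadjusted p under 0.05, beside 2639 genes in spleen and 2845 in marrow of the 11963 tested. Over both tissues 3 rose, by 0.22 for Il2rb, 0.23 for Gzma and 0.38 for Cd244a, where 8.81% of all genes rose. Their summed linear signal was 33010 to 35140 in KO spleen against 30934 to 33357 in WT spleen, and 28224 to 30746 in KO marrow against 25954 to 29746 in WT marrow. The labels carry a number for each array and do not say what the numbers stand for. Split at a gap in these numbers, a choice made here, the arrays form 2 runs of 7 and 5. The second run holds no KO marrow array. Spleen has, within the first run, 1 KO array against 2 WT arrays and, within the second, 2 against 1, and marrow has 3 against 1 within the first, so values within runs carry no test. Differences below come from a limma fit with the run as a covariate, so they can depart slightly from the gap between group means. Rose, fell or called means an adjusted p under 0.05, by the Benjamini-Hochberg method over the 11963 genes tested.

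In KO spleen 5 of the 10 genes rose and 0 fell in limma (1 lower, Twf2, at an unadjusted p under 0.05), where 5.48% of all genes rose and 3.63% fell. The 5 were Twf1, Cfl2, Dstn, Capg and Tmsb15a. In KO marrow the same 5 genes rose and Twf2 fell, where 3.92% of all genes rose and 4.73% fell. That background split changes with the scaling: 469 genes rose and 566 fell on the deposited scale, against 539 and 379 after a repeated quantile normalization. Over both tissues Gsn joined them, with 6 members higher and 1 lower, against 8.81% and 10.3% of all genes. The members' counts were the same under both other scalings, while the split of all genes was 1054 higher and 1236 lower on the deposited scale, against 1233 and 1013 after the repeated quantile normalization. The median difference of the 10 genes was 0.39 in spleen and 0.50 in marrow, beside -0.01 for all tested genes in each tissue. The KO and WT arrays did not overlap for 7 of the 10 in spleen and 8 of the 10 in marrow, which was the case for 28.0% and 34.2% of all genes. The 3 genes that did not pass in any KO comparison were Cfl1, Tmsb4x and Tmsb10. Because these are bulk samples, fewer cells of one type and less RNA per cell cannot be told apart.

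**Figure D1:**
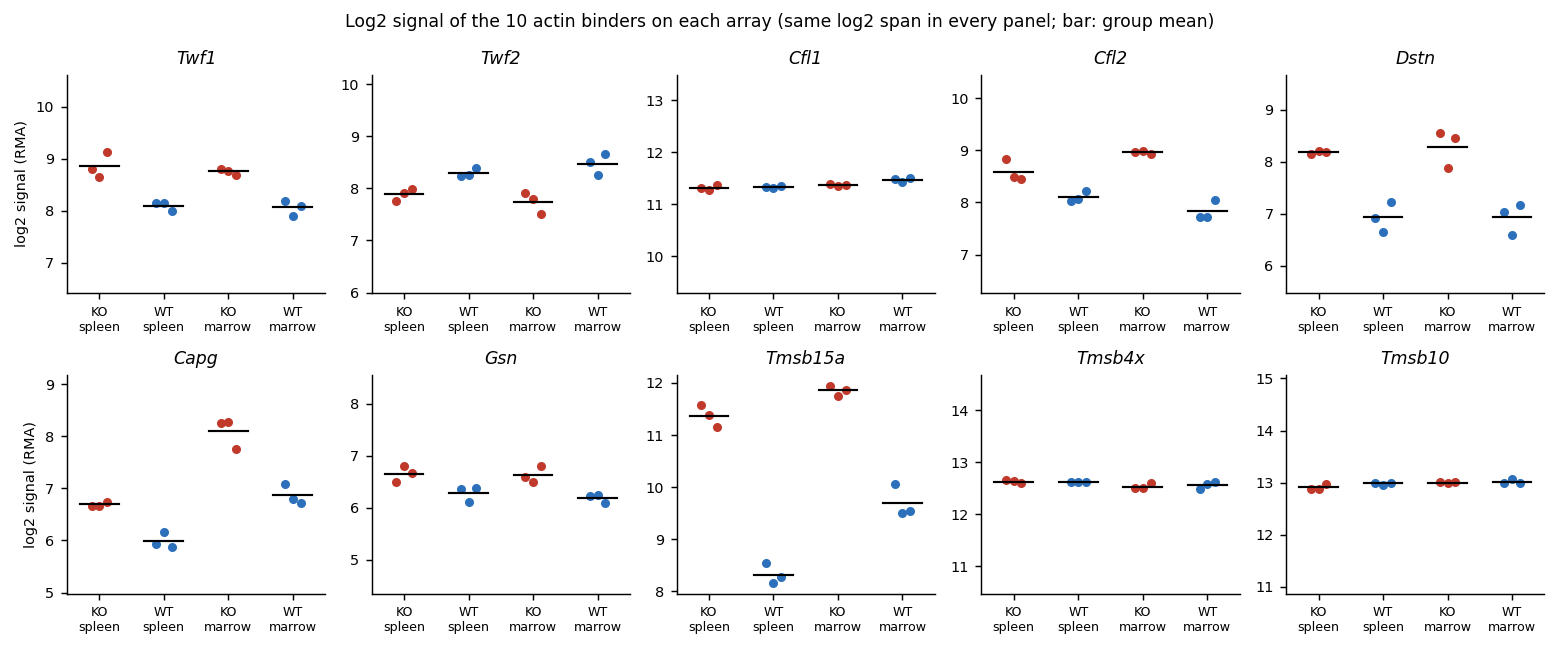
Log2 signal of the 10 genes on each of the 12 arrays, with KO (red) left of WT (blue) in each tissue, points for single arrays, bars for group means and the same log2 span in every panel. Tmsb15a shows the widest gap between genotypes, Twf2 is lower in KO, and Cfl1, Tmsb4x and Tmsb10 stay nearly level.

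The twinfilins went in opposite directions. Twf1, which binds actin monomers and filament ends, read 8.81, 8.66 and 9.13 in KO spleen against 8.15, 8.14 and 8.01 in WT spleen. In marrow it read 8.81, 8.76 and 8.70 in KO against 8.20, 7.90 and 8.10 in WT. Every KO array was above every WT array of its tissue, and the highest KO value was that of spleen sample 3. Twf1 rose by 0.85 ± 0.10 in spleen (standard error, n = 3 arrays per group, limma adjusted p = 3.35e-04), which is 1.80-fold, and by 0.53 ± 0.12 in marrow (adjusted p = 0.0157). The marrow call was lost without WT marrow sample 1, the only WT marrow array of the first run, where the adjusted p was 0.153. Within the first run alone the marrow difference was 0.56, and within the first and second runs the spleen difference was 0.98 and 0.73.

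The second Twf1 probe set, to which the annotation gives the same transcripts, was dimmer. Whether it reads Twf1 itself or a near-identical copy cannot be told from the annotation. It read 7.09, 6.79 and 7.07 in KO spleen against 6.13, 6.59 and 6.30 in WT spleen, and 6.87, 7.26 and 6.93 in KO marrow against 6.42, 6.12 and 6.52 in WT marrow. The genotypes did not overlap in either tissue here as well. In a fit over 13126 probe sets it rose by 0.67 ± 0.16 in spleen (adjusted p = 0.0281) and by 0.63 ± 0.11 over both tissues (adjusted p = 0.00273), where the brighter probe set rose by 0.69 ± 0.07. In marrow alone the dimmer probe set stood at 0.60 ± 0.18 and did not pass (adjusted p = 0.0706).

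**Figure D2:**
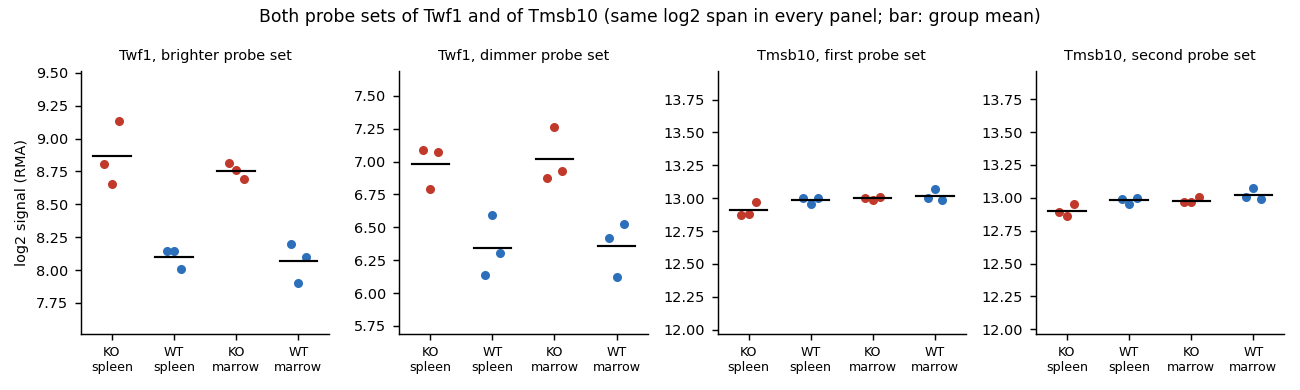
Log2 signal of both probe sets of Twf1 and of Tmsb10 on each array, KO in red left of WT in blue, bars for group means. Both Twf1 probe sets are higher in all KO arrays of a tissue than in its WT arrays, while both Tmsb10 probe sets lie near 13 in every group.

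Twf2, the second twinfilin gene, read 7.77, 7.92 and 7.99 in KO spleen against 8.23, 8.25 and 8.38 in WT spleen, and 7.90, 7.80 and 7.51 in KO marrow against 8.51, 8.26 and 8.66 in WT marrow. All KO arrays lay below the WT arrays of their tissue. Twf2 fell by 0.75 ± 0.15 in marrow (limma adjusted p = 0.0114) and by 0.57 ± 0.10 over both tissues (adjusted p = 0.00142). In spleen it stood at -0.39 ± 0.14 with a 95% interval from -0.70 to -0.09 before adjustment for the number of genes, and did not pass (adjusted p = 0.114). Like Twf1, it lost its marrow call without WT marrow sample 1 (adjusted p = 0.114). Its difference within the first run was -0.25 in spleen and -0.77 in marrow, and within the second run -0.54 in spleen. Over the 12 arrays the correlation of Twf2 with Twf1 was -0.76, as a description of arrays that share genotype and tissue.

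Among the filament-severing proteins the abundant form in non-muscle cells, Cfl1, did not pass, while Cfl2 and Dstn rose. Cfl1 read 11.30, 11.28 and 11.36 in KO spleen against 11.33, 11.30 and 11.35 in WT spleen. In marrow it read 11.39, 11.35 and 11.37 in KO against 11.49, 11.42 and 11.50 in WT. The spleen arrays overlapped, and the KO marrow arrays lay just below the WT ones. The difference was 0.00 in spleen, with a 95% interval from -0.19 to 0.18, and -0.12 in marrow, with an interval from -0.33 to 0.09.

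Cfl2, the cofilin best known from muscle, read 8.84, 8.48 and 8.45 in KO spleen against 8.02, 8.06 and 8.23 in WT spleen. In KO marrow it read 8.97, 8.98 and 8.93 against 7.73, 7.73 and 8.05 in WT marrow. The genotypes separated in both tissues, most widely in marrow. Cfl2 rose by 1.25 ± 0.13 in marrow (limma adjusted p = 1.44e-04), or 2.38-fold, and by 0.43 ± 0.12 in spleen (adjusted p = 0.0474), or 1.34-fold. The spleen call stood close to the threshold and was lost in 12 of 23 alternative settings, with adjusted p-values from 0.0253 to 0.184. Within the first run the difference was 0.41 in spleen and 1.23 in marrow, and within the second run 0.43 in spleen.

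Dstn read 8.16, 8.20 and 8.19 in KO spleen against 6.92, 6.65 and 7.23 in WT spleen, and 8.55, 7.88 and 8.45 in KO marrow against 7.04, 6.60 and 7.18 in WT marrow. The lowest KO array was still above the highest WT array. Dstn rose by 1.22 ± 0.21 in spleen (limma adjusted p = 0.00328), or 2.33-fold, and by 1.42 ± 0.23 in marrow (adjusted p = 0.00286), or 2.67-fold. Replicate 2 was the lowest of its group in WT spleen, KO marrow and WT marrow. Within the first run the difference was 1.41 in spleen and 1.26 in marrow, and within the second run 0.95 in spleen.

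**Figure D3:**
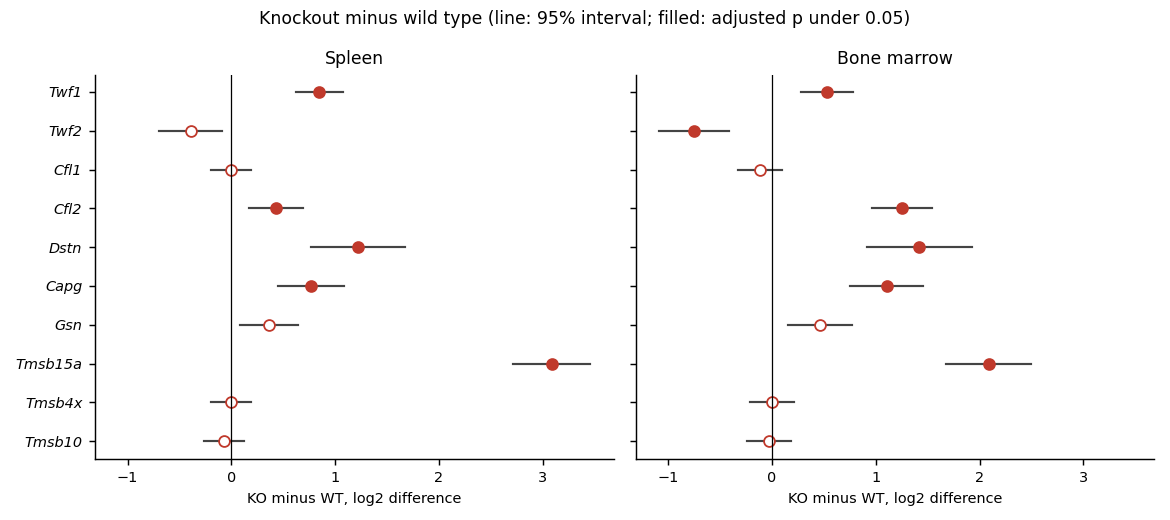
KO minus WT log2 difference of each gene in spleen (left) and bone marrow (right), with 95% intervals from limma that are not adjusted for the number of genes tested and filled points for an adjusted p under 0.05. Tmsb15a lies farthest to the right in both tissues at 3.09 and 2.09, and Twf2 is the only gene called on the left, in marrow.

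The gelsolin-family cappers were both higher in KO. Capg, a capping protein of leukocytes, read 6.67, 6.66 and 6.75 in KO spleen against 5.93, 6.16 and 5.88 in WT spleen. In KO marrow it read 8.26, 8.28 and 7.76 against 7.08, 6.80 and 6.72 in WT marrow. The genotypes did not overlap within a tissue, and KO spleen (up to 6.75) reached only the lowest WT marrow array (6.72). Capg rose by 0.77 ± 0.14 in spleen (limma adjusted p = 0.0058), or 1.70-fold, and by 1.10 ± 0.16 in marrow (adjusted p = 0.00131), or 2.15-fold. Within the first run the difference was 0.70 in spleen and 1.01 in marrow, and within the second run 0.78 in spleen.

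Gsn, which severs and caps filaments, read 6.50, 6.81 and 6.67 in KO spleen against 6.37, 6.11 and 6.39 in WT spleen. In marrow it read 6.59, 6.50 and 6.80 in KO against 6.22, 6.25 and 6.10 in WT. The gap was narrow but free of overlap in both tissues. Gsn rose over both tissues by 0.41 ± 0.09 (limma adjusted p = 0.00649). It did not pass in spleen alone (0.36 ± 0.13, adjusted p = 0.111) or in marrow alone (0.46 ± 0.14, adjusted p = 0.0667). Its difference within the first run was 0.43 in spleen and 0.41 in marrow, and within the second run 0.27 in spleen.

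Some genes listed as markers of other cells differed as well. Itgax, one of them, was also bright in WT, at 10.39, 10.44 and 10.42 in spleen and 9.98, 9.90 and 10.24 in marrow. Whether NK cells themselves carry these transcripts was not tested. Of 10 dendritic cell markers 5 were tested, and all 5, namely Itgax, H2-Aa, H2-Ab1, H2-Eb1 and Cd74, rose in KO spleen, while Itgax alone passed in marrow. Their list, of which Itgax alone made up 61.7% to 79.1% on each array, summed to a linear signal of 4333 to 4930 in KO spleen against 1805 to 2031 in WT spleen, and 3500 to 3884 in KO marrow against 1499 to 1827 in WT marrow. Without Itgax the sums were 907 to 1361 in KO spleen against 439 to 642 in WT spleen, and 790 to 877 in KO marrow against 492 to 619 in WT marrow. The other dendritic cell markers of the list, Flt3, Xcr1, Clec9a, Cd209a and Siglech, were below the test level. Of 8 tested granulocyte markers 1 rose in KO spleen and 4 fell in KO marrow, with sums of 953 to 2099 in KO spleen against 577 to 1153 in WT spleen, and 1580 to 3131 in KO marrow against 4671 to 5524 in WT marrow. Of 6 tested T cell markers 2 fell in spleen and 4 in marrow, with sums of 866 to 1021 in KO spleen against 1198 to 1286 in WT spleen and of 812 to 999 in KO marrow against 2192 to 2420 in WT marrow. The spleen list was split. Cd3d read 6.39, 5.71 and 7.11 in KO against 7.83, 7.58 and 7.43 in WT. Cd28 read 8.45, 8.42 and 8.18 in KO against 9.01, 9.29 and 9.32 in WT. Cd3e went the other way, at 7.56, 7.34 and 7.87 in KO against 6.95, 7.32 and 7.02 in WT. Cd3g overlapped between genotypes. Over both tissues 1 of 3 monocyte and 1 of 4 platelet markers fell, and 0 of 3 B cell, 0 of 3 erythroid and 0 of 2 mast cell markers passed in limma; in single tissues 1 erythroid marker rose in spleen and 1 fell in marrow. Beside these counts, 5.48% of all genes rose and 3.63% fell in spleen, and 3.92% and 4.73% in marrow. Over both tissues the shares were 8.81% and 10.3%. The part of cells of these other types in the differences of the actin genes was not tested.

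The beta-thymosins held both the widest difference and the narrowest. Tmsb15a encodes a monomer-binding thymosin that has been linked to cell motility in human tumours. It read 11.58, 11.39 and 11.16 in KO spleen against 8.54, 8.17 and 8.27 in WT spleen, and 11.95, 11.75 and 11.87 in KO marrow against 10.06, 9.50 and 9.54 in WT marrow. The groups lay in the order KO marrow, KO spleen, WT marrow and WT spleen, with no overlap between any neighbours. Tmsb15a rose by 3.09 ± 0.17 in spleen (limma adjusted p = 8.4e-07), or 8.49-fold, and by 2.09 ± 0.19 in marrow (adjusted p = 4.71e-05), or 4.25-fold. Both calls held in every alternative setting, with differences from 2.98 to 3.37 in spleen and from 1.95 to 2.45 in marrow. Within the first run the difference was 2.81 in spleen and 1.79 in marrow, and within the second run 3.21 in spleen. The other beta-15 thymosin genes share a probe set with several symbols and are not named here. The coding sequences of this family are alike, and whether the Tmsb15a probe set also takes up their signal cannot be told from these values.

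Tmsb4x, the main monomer-holding thymosin of blood cells, read 12.66, 12.63 and 12.59 in KO spleen against 12.62, 12.61 and 12.61 in WT spleen, and 12.50, 12.51 and 12.59 in KO marrow against 12.49, 12.59 and 12.63 in WT marrow. Tmsb10 read 12.87, 12.88 and 12.97 in KO spleen against 13.00, 12.96 and 13.00 in WT spleen, and 13.01, 12.99 and 13.01 in KO marrow against 13.00, 13.07 and 12.99 in WT marrow. The genotypes overlapped for both genes in both tissues. Over both tissues the difference was 0.00 for Tmsb4x, with a 95% interval from -0.14 to 0.13, and -0.05 for Tmsb10, with an interval from -0.18 to 0.08. The second Tmsb10 probe set gave -0.06, with an interval from -0.19 to 0.06. Whether this probe set reads Tmsb10 itself or a near-identical copy cannot be told from the annotation. Mean signals of Tmsb4x, Tmsb10 and Cfl1 lay at the 99.3rd percentile of all symbols or higher, and differences between such bright signals can be compressed on arrays.

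Promoter windows ran from 250 bases before to 50 after a start site in RefSeq. Windows were matched for 9 of the 10 genes, all but Twf2, with 13 windows in all. The windows of 3 genes are printed here: Tmsb15a and Dstn, which had the largest rises, and Tmsb4x, which did not pass. They are chrX:135720624-135720923 on the minus strand, chr2:143915081-143915380 on the plus strand and chrX:167209169-167209468 on the minus strand, in build GRCm38.p6. Capitals mark the TATAAA motif, the CCAAT box and the GGGCGG box, each searched on both strands.

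Tmsb15a: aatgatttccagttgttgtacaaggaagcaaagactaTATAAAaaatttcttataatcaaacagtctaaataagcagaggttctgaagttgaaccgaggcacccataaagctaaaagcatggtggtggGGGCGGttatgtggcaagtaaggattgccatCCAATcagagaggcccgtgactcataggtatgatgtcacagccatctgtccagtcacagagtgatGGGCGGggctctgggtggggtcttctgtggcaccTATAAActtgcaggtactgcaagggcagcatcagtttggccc

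Dstn: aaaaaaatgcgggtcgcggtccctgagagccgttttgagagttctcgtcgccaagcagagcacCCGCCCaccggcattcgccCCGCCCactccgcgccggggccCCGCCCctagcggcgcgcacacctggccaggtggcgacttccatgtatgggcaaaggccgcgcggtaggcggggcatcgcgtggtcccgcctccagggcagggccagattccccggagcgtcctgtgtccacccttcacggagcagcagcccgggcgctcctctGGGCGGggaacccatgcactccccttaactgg

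Tmsb4x: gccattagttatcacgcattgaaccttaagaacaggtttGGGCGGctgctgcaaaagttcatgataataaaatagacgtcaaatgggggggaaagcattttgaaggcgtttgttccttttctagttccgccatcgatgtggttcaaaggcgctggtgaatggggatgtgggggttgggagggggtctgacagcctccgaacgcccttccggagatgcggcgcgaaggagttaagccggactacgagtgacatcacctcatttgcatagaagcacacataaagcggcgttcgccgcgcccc

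Tmsb15a was the 1 member with TATAAA in its window, at 213 bases before the start and again just after it, where 13.62% of all 32851 windows hold the motif. CCAAT was found in 6 of the 13 member windows and in 37.41% of all windows, and GGGCGG in 12 of the 13 and in 35.66% of all. GGGCGG consists of G and C alone, and its share was not compared among windows of like GC content. Gsn and Tmsb10 have 3 windows each, so the 13 are not independent. The CArG box, the motif of serum response factor, was in 0 of the 13 windows and in 1.63% of all. The Tmsb15a window had a GC content of 47.0%, the lowest of the 13, beside 71.0% for Twf1, 75.3% for Cfl2 and 69.7% for Dstn and a median of 52.7% over all windows. These matches describe letters and do not show that a factor binds.

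Bone marrow was also set against spleen within each genotype. In WT cells 2 members, Tmsb15a and Capg, were higher in marrow, where 4.34% of all genes were. For all genes this split was 519 higher and 124 lower on the deposited scale, against 901 and 76 after median centring and 419 and 179 after a repeated quantile normalization. Tmsb15a was higher by 1.41 ± 0.17 in WT marrow than in WT spleen (limma adjusted p = 0.0013), and Capg by 0.94 ± 0.14 (adjusted p = 0.00526). In KO cells Capg alone was called, higher by 1.28 ± 0.16 in marrow (adjusted p = 0.00493), where 0.0920% of all genes were higher. Tmsb15a stood at 0.41 ± 0.19 in KO cells and did not pass (adjusted p = 0.537), and Cfl2 at 0.50 ± 0.13 (adjusted p = 0.22). The Capg calls were lost without WT marrow sample 1 (WT, adjusted p = 0.067) and without KO spleen sample 3 (KO, adjusted p = 0.147). Granulocyte markers differed between these tissues too, with sums of 4671 to 5524 in WT marrow against 577 to 1153 in WT spleen, and 1580 to 3131 in KO marrow against 953 to 2099 in KO spleen, and their part in the Capg difference was not tested.

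Whether the knockout effect differed between tissues was tested as the marrow effect minus the spleen effect. None of the 10 members was called in limma, where 0.00836% of all genes, a single gene, was. At an unadjusted p under 0.05 there were 2 of the 10 members, beside 1092 of the 11963 genes tested. Tmsb15a had the smaller effect in marrow, with a difference of -1.0 ± 0.27 (adjusted p = 0.311), and Cfl2 the larger, with 0.82 ± 0.19 (adjusted p = 0.242). The interval of the difference before adjustment ran from -1.59 to -0.41 for Tmsb15a and from 0.41 to 1.24 for Cfl2. For Twf1 the difference was -0.32 ± 0.17 and for Dstn 0.20 ± 0.33.

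The genes most like 4 of the members over the 12 arrays were listed by Pearson correlation, as a description of arrays that share the same 4 groups. Twf1 was most like Abhd4 (0.97), Osbpl1a (0.96) and the homeobox gene Hoxa10 (0.96). After group means were removed, Abhd4 still tracked it at 0.88, the highest such value of the pairs listed here. The lowest was 0.26, for Inpp4b with Tmsb15a. Tmsb15a was most like Atxn10 (0.99), Ywhae (0.99) and the lipid phosphatase gene Inpp4b (0.98). Dstn was most like Hip1 (0.98), which encodes a clathrin and actin adaptor, Papss1 (0.96) and Osbpl1a (0.96). Capg was most like Gstp3 (0.95), Rgs16 (0.94), a regulator of G-protein signalling, and Slc25a39 (0.92). All of these genes stood higher in KO, with differences over both tissues from 0.26 for Slc25a39 to 3.41 for Inpp4b. That direction follows largely from the choice, since they were picked for tracking members that rose in KO. Among the members themselves Dstn correlated with Twf1 at 0.90, with Tmsb15a at 0.89 and with Cfl2 at 0.89.

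Other actin genes were counted by role, from 6 lists with 71 tested genes of 86. Over both tissues 4 of the 71 rose and 19 fell, against 8.81% and 10.3% of all genes. The counts were the same after median centring, and 7 rose and 14 fell after the repeated quantile normalization, which also turned the split of all genes. In spleen 3 rose and 6 fell, against 5.48% and 3.63% of all genes, and in marrow 1 rose and 10 fell, against 3.92% and 4.73%. After median centring 4 rose and 5 fell in spleen, and 1 rose and 12 fell in marrow. After the repeated quantile normalization 4 rose and 6 fell in spleen, and 1 rose and 7 fell in marrow.

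Of 5 relatives that carry the actin-depolymerizing-factor domain, 1 rose and 1 fell. Gmfg, a leukocyte protein that debranches filament networks, read 9.61, 9.26 and 9.66 in KO spleen against 11.15, 11.08 and 11.00 in WT spleen, and 10.07, 9.63 and 9.89 in KO marrow against 11.22, 11.41 and 11.20 in WT marrow. No KO array reached the WT range, and Gmfg fell by 1.50 ± 0.10 over both tissues (limma adjusted p = 9.21e-07). Cotl1, the filament-binding coactosin-like protein, rose by 0.55 ± 0.11 (adjusted p = 0.00472), with 0.88 ± 0.16 in spleen (adjusted p = 0.005) and 0.22 ± 0.18 in marrow, which did not pass (adjusted p = 0.493). Gmfb (0.10 ± 0.08), Dbn1 (-0.05 ± 0.07) and Dbnl (-0.17 ± 0.11) did not pass.

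Of 15 regulators and partners of cofilin 4 fell and 0 rose over both tissues, or 3 and 1 after the repeated quantile normalization. Ssh2, a phosphatase that activates cofilin, fell by 0.82 ± 0.10 (limma adjusted p = 9.81e-05) and was called in each tissue. Cap1, which works with cofilin in recycling monomers, fell by 0.40 ± 0.07, and the coronin gene Coro1a by 0.32 ± 0.07. Taken by tissue, Cap1 passed in marrow alone and Coro1a in neither. In spleen 1 of the 15 rose and 1 fell, and in marrow 0 rose and 2 fell. The 1 that rose was another coronin gene, Coro1c, by 0.68 ± 0.16 in spleen (limma adjusted p = 0.0177). Coro1c stood at -0.11 ± 0.17 in marrow and did not pass there or over both tissues. Of 10 other gelsolin-family and capping genes 2 fell, the supervillin gene Svil by 0.73 ± 0.08 and the adducin gene Add3 by 0.58 ± 0.08, both called in each tissue. Among 6 genes of actins, profilins and the serum response factor axis, Srf itself fell by 0.40 ± 0.09 over both tissues (adjusted p = 0.00723). It stood at -0.10 ± 0.13 in spleen, which did not pass (adjusted p = 0.708), and at -0.69 ± 0.14 in marrow, which did (adjusted p = 0.01). The other 5 did not pass over both tissues, with differences from -0.15 to 0.07.

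Of 22 genes for filament nucleation 3 rose and 8 fell over both tissues, or 3 and 4 after the repeated quantile normalization. The 3 that rose were the formin gene Daam1 (0.59 ± 0.10), the Arp2/3 subunit gene Arpc1a (0.52 ± 0.10) and Wasl (0.49 ± 0.10), which encodes an activator of the Arp2/3 complex. By tissue, Daam1 passed in marrow, Arpc1a in spleen and Wasl in neither. These differences were larger than the falls, which ran from -0.36 for Fmnl1 to -0.23 for Cyfip2. Of 13 cross-linkers, linkers and tropomyosins 3 fell and 0 rose over both tissues, or 3 and 2 after the repeated quantile normalization. The filamin gene Flna fell by 0.73 ± 0.08 (limma adjusted p = 5.13e-05), and the membrane linkers Msn and Ezr by 0.37 ± 0.07 and 0.34 ± 0.07. Flna was called in each tissue, Msn in spleen and Ezr in marrow.

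**Figure D4:**
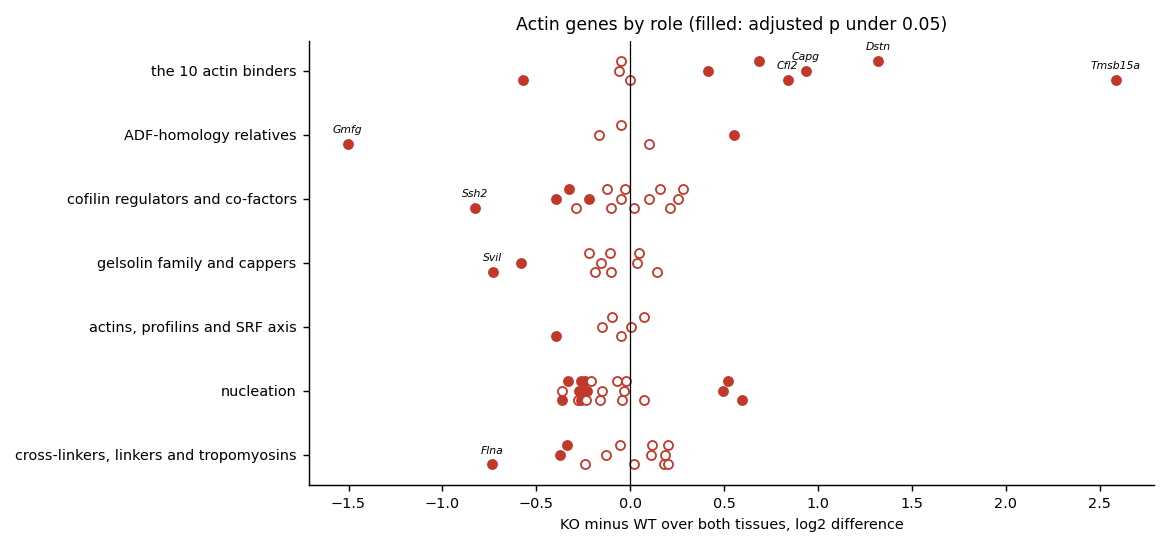
KO minus WT log2 difference over both tissues for the 10 actin binders (top line) and for 71 other actin genes by role, 1 point per gene, filled where the adjusted p was under 0.05, with genes beyond 0.7 labelled. Called points lie mostly right of 0 on the top line and mostly left of 0 on the lines below (4 right and 19 left, or 7 and 14 after a repeated quantile normalization), where Gmfg at -1.50 is the farthest.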

How the data were processed

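Biotinylated cDNA of sorted NK cells was prepared by NuGEN Ovation PicoSL amplification for Affymetrix arrays, per the labels' protocols. The authors deposited 1 log2 signal for each probe set and array, computed with Affymetrix Expression Console and RMA, per the submitters' processing notes. RMA in general corrects background, normalizes arrays by quantiles and summarises probes, which draws overall signal levels together. Their versions and the build behind the arrays' annotation were not stated in the sources used here. Of 35556 probe sets, 21789 had 1 symbol, 1621 several and 12146 none. Genes were named from the first kind only, and 21698 of those matched RefSeq GRCm38.p6 by gene identifier. The probe set with the highest mean was kept for each of 19938 symbols. Symbols with a mean above the 40th percentile, 5.49, were tested (11963). With 3 arrays per group, precision is limited by their number.

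limma 3.58.1 under R 4.3.3 fitted the 4 group means plus the run, leaving 7 residual and 4.74 prior degrees of freedom. P-values are two-sided with Benjamini-Hochberg adjustment. The run itself was called for 0 genes. The fit was tested on simulated data. Members and lists were chosen with earlier results of these data known. Named genes are all members, up to 3 called genes with the largest difference over both tissues per list, every gene of a list with 5 or fewer tested, and the 3 most correlated genes (not predicted genes or olfactory or vomeronasal receptors) of Twf1 and of the 3 members with the largest difference. Fmnl1, Cyfip2, H2 and other marker genes and the promoter windows shown were named after their values were seen. Listed genes without a probe set of 1 symbol were not analysed here.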

Additional observations from a re-analysis of the deposited data

How the results depend on the processing

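The 10 genes gave 60 results over 6 comparisons, 21 of them called, and 16 of the 21 kept their call and none changed sign in any alternative (another scaling, filter, run model, prior, array weights, probe-set rule or left-out array; the second probe set of Twf1 and Tmsb10 and the rescaled counts of the other actin genes were added after seeing the data). The 5 others were Cfl2 in spleen, Twf1 and Twf2 in KO against WT marrow, and Capg between the tissues in WT and in KO. Gsn in marrow passed in 4 settings, with adjusted p down to 0.0206 (no run covariate, run as a random block, marrow fitted alone, and without KO spleen sample 1). Leaving out 1 array at a time gave 4 to 5 members called in spleen, 4 to 7 in marrow, 7 over both tissues and 0 for the difference between tissues. It gave 1 to 2 between tissues in WT, the lower without WT marrow sample 1, and 0 to 1 in KO, the lower without KO spleen sample 3. Without WT marrow sample 1, all KO marrow arrays are of the first run and all WT marrow arrays of the second. Without KO spleen sample 3, all KO spleen arrays are of the second run and all KO marrow arrays of the first. KO against WT in marrow, and marrow against spleen in KO, are then separated from the run only through the other groups. The part of this and of the smaller number of arrays in the lost calls was not tested. With the replicate block beside the run, 4 members were called in spleen, where Cfl2 was lost (adjusted p = 0.0595), and it changed no other call. Deviations of same-numbered samples correlated at -0.02 to 0.24 and of others at -0.22 to 0.07. Not every pair was over 0.1, and every sample correlated best with its own number only between tissues in WT, a hint from the data and not from the design. With the filter at the 60th percentile Gsn was not tested.

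Counts over all genes moved more. In spleen 1090 genes were called, against 546 without WT spleen sample 3 and 647 without KO spleen sample 3. In marrow 1035 were called, against 1590 with no run covariate, 1830 with the run as a random block and 371 without WT marrow sample 1. Between tissues in WT the count was 643, against 977 after median centring, 1135 with array weights and 82 to 702 leaving out 1 array. In KO it was 38, against 87 with no run covariate, 119 with the run as a random block and 1 to 38 leaving out 1 array. The difference between tissues was called for 1 gene and for 0 to 12 in the alternatives. Mir142 in KO lay below the test level, and Capg in WT spleen and Gsn lay closer to it than the other members, where log2 differences can be compressed.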
